A study of Mus musculus with 6 samples.

Results

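The 10 genes described here encode proteases of the families that cut and trim prohormones and other precursor proteins. They comprise 7 proprotein convertases (*Pcsk1*, *Pcsk2*, *Pcsk4*, *Pcsk5*, *Pcsk6*, *Pcsk7* and *Furin*) and 3 metallocarboxypeptidases (*Cpe*, *Cpd* and *Cpz*). They were taken by name, under a rule that uses no measured value although earlier results of these data were known, from 53808 mouse genes with a deposited value. Messenger RNA was sequenced from 6 clonal lines of MIN6, a mouse insulinoma line used as a model of the pancreatic β cell. All 6 clones came from MIN6 cells that express Cas9, were infected with lentivirus carrying a gRNA and a puromycin resistance gene, were selected with puromycin and were expanded from single cells. The 3 control clones carry a gRNA against intron 2 of *Snd1*, and the 3 *Snd1* KO clones were targeted at exon 2, with 1 library per clone. The study lists 2 gRNAs for exon 2, and shows *Snd1* KO 1 and 2 under gRNA 1 and *Snd1* KO 3 under gRNA 2. *Snd1* encodes a transcriptional coregulator with staphylococcal nuclease and Tudor domains. The comparison asks whether these protease genes differ in level when *Snd1* is disrupted in a line that makes insulin. Because each clone grew from 1 edited cell of a tumour line, p-values measure the spread between these clones only, and clonal differences and the effect of the gRNA cannot be told apart within a single clone. In bulk RNA, fewer cells that express a gene and less RNA per cell cannot be told apart either.

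A prohormone is made as a longer chain in which active peptides are flanked by pairs of basic residues. Convertases, serine proteases related to bacterial subtilisin, cut after these pairs, and a carboxypeptidase then trims the basic residues that remain at the new end. In the β cell, PC1/3 (encoded by *Pcsk1*) and PC2 (*Pcsk2*) act with carboxypeptidase E (*Cpe*) inside the secretory granule to convert proinsulin to insulin and C-peptide, whereas furin and its relatives act in the Golgi and at the cell surface on receptors, growth factors and adhesion proteins in most cells.

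Windows of DNA just before the start of transcription are shown for 3 genes because they belong to the most variable and the 2 steadiest of the well expressed members (deposited mean of 5 TPM or more), *Pcsk1*, *Pcsk2* and *Pcsk7*. The letters are from RefSeq (GRCm38.p6, plus strand of each chromosome, 5′ to 3′) and end before the first transcribed base of the GENCODE M21 or the RefSeq gene model, whichever came first. Capitals mark matches, on either strand, to the cAMP response element TGACGTCA or its core TGACGT, to the GC box GGGCGG, to the TATA box TATAAA and to the CCAAT box CCAAT.
*Pcsk1*, chr13:75089607-75089825: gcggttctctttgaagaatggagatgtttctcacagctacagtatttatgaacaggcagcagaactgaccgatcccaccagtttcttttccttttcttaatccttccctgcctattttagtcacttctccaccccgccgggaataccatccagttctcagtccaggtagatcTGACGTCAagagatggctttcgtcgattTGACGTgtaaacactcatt
*Pcsk2*, chr2:143545883-143546132: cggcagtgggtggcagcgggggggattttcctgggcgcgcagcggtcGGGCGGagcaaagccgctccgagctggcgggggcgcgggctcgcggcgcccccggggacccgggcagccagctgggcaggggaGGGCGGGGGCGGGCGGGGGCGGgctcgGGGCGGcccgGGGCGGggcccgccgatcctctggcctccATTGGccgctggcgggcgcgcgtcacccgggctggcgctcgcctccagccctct
*Pcsk7*, chr9:45906319-45906496: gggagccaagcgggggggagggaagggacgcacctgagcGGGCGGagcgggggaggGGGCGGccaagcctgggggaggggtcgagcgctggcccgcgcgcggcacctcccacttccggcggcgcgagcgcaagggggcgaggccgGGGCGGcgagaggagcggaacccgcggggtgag
The *Pcsk1* window holds a full cAMP response element at position −78 from the RefSeq start and a further core at −50, and the full element contains the core on both strands. Among 32851 mouse promoter windows of 300 bases (250 before and 50 after the start), 1.79% held TGACGTCA and 7.51% held TGACGT. Of the 9 windows found for 8 of the 10 genes (*Furin* has 2), the *Pcsk1* window was the one with the full element, and a *Furin* window held a core without it, together with a TATA box. The *Pcsk2* window holds 7 GC boxes between −203 and −83, a pair of which overlap, and 76.3% of its 300 bases are G or C against a median of 52.7% over all windows. GGGCGG occurred in 35.7% of all windows, and it was found in 8 of the 9 windows of these genes, 3 times in *Pcsk7* (G and C 78.7%) and 2 times in *Pcsk6* (81.7%). TATAAA occurred in 13.6% and CCAAT in 37.4% of all windows. These are matches of letters and not measured binding sites.

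The members are related in sequence, so the longest runs of bases that pairs of them share in their coding sequences (GENCODE M21) are shown for 5 pairs, since they bound how far a read could be counted for the wrong gene.
*Pcsk5* and *Pcsk6*: cgtctacaccaaccactgggcagtg
*Furin* and *Pcsk4*: tgtgacggctacaccaacagcatc
*Furin* and *Pcsk6*: ggctacaccaacagcatcta
*Pcsk1* and *Furin*: cacacaggcacctcggcttc
*Pcsk1* and *Pcsk2*: tacagtgcaagctggggccc
The longest run shared by any pair of the 10 genes was 25 bases, and the run shared by *Pcsk1* and *Furin* encodes the stretch around the catalytic serine of the convertases. No stretch of 100 transcript bases was shared between 2 members. Stretches of that length were shared with other annotated genes for 1.08% of those in *Pcsk6* (with *Gm45213*) and 0.181% of those in *Furin* (with *Gm48610*). Exons on the opposite strand overlap 7.98% (*Rnf214*) and 2.08% (*Tagln*) of the exonic bases of *Pcsk7*, 3.29% (*Pcsk2os1*) and 1.25% (*Pcsk2os2*) of *Pcsk2* and 1.29% of *Furin* (*Gm44851*), and the sources used here do not say whether counting used strand. *Gm45213* overlaps 3.01% of the exonic bases of *Pcsk6* on the same strand, where counting by strand would not separate the genes.

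Before the comparison, the clones were checked against their labels. *Snd1* was 113, 119 and 112 TPM (reads scaled to gene length and library depth) in control 1, 2 and 3 and 14.7, 57.1 and 19.9 TPM in *Snd1* KO 1, 2 and 3, so the KO clones held 12.9% to 49.8% of the control mean, with *Snd1* KO 2 the highest (log2 fold change −2.11, standard error 0.45, adjusted p = 0.511, limma with Benjamini-Hochberg adjustment). The study screened its clones for SND1 by immunoblot and reported exon 2 indels in the KO clones, and protein was not measured here. All 10 β cell markers examined were expressed. All 6 acinar markers were under 1 TPM in every clone, 4 of them at 0, as were 4 of 5 duct markers, 3 of 4 δ, PP and ε cell markers and 5 of 6 fibroblast, immune and endothelial markers. Of the α cell markers, *Irx2* was under 1 TPM in every clone, whereas *Gcg* ranged from 55.2 to 1100 TPM. *Ttr*, an α cell marker that β cells also express, was 14121 to 20138 TPM in control and 3032 to 8774 TPM in *Snd1* KO clones, and the duct marker *Krt7* was 1.59 to 72.9 and 44.1 to 87.2 TPM, and the part of either in the results was not tested. Between 23700630 and 30454383 reads on genes were recovered per library from the steps of the TPM values. This is more than the number of reads per library that the study's methods state, and whether the mates of a pair were counted separately is not given in the sources used here, in which case the counting intervals printed here would be too narrow. Control 3 stood apart from its group, since its log2 values correlated more with *Snd1* KO 3 (Pearson r = 0.955, across genes) and *Snd1* KO 2 (0.949) than with control 1 (0.943) and control 2 (0.936), and *Snd1* KO 1 likewise correlated more with control 3 (0.938) and control 1 (0.934) than with *Snd1* KO 3 (0.933) and *Snd1* KO 2 (0.922). Clones whose removal moved a member's estimate by more than 1.5 times are named beside it.

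The members differed widely in level, and the order was led by the granule enzymes. Levels of different genes were compared on a TPM scale in which each exonic base is counted once, because the deposited TPM divide by a length summed over all transcripts of a gene, 1.67 times the exonic length at the median gene and 3.94 times for *Pcsk4*. On that scale *Cpe* was the most abundant member at 3762 ± 468 TPM in control clones (SD, n = 3, as for the next values). *Pcsk2* followed at 833 ± 20.1 and *Pcsk1* at 567 ± 139 TPM. *Cpd* had 140 ± 9.74 TPM. *Furin* and *Pcsk7* were lower at 48.9 ± 4.24 and 30.2 ± 1.41 TPM. *Pcsk4* had 9.43 ± 2.74 TPM and *Pcsk6* 0.489 ± 0.137 TPM. The ranges over all 6 clones did not overlap between any neighbours in this order down to *Pcsk6*, whereas *Pcsk6* (0.331 to 2.36 TPM) overlapped with *Cpz* (0 to 0.544 TPM), and *Cpz* with *Pcsk5* (0 to 0.254 TPM).

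**Figure D1:**
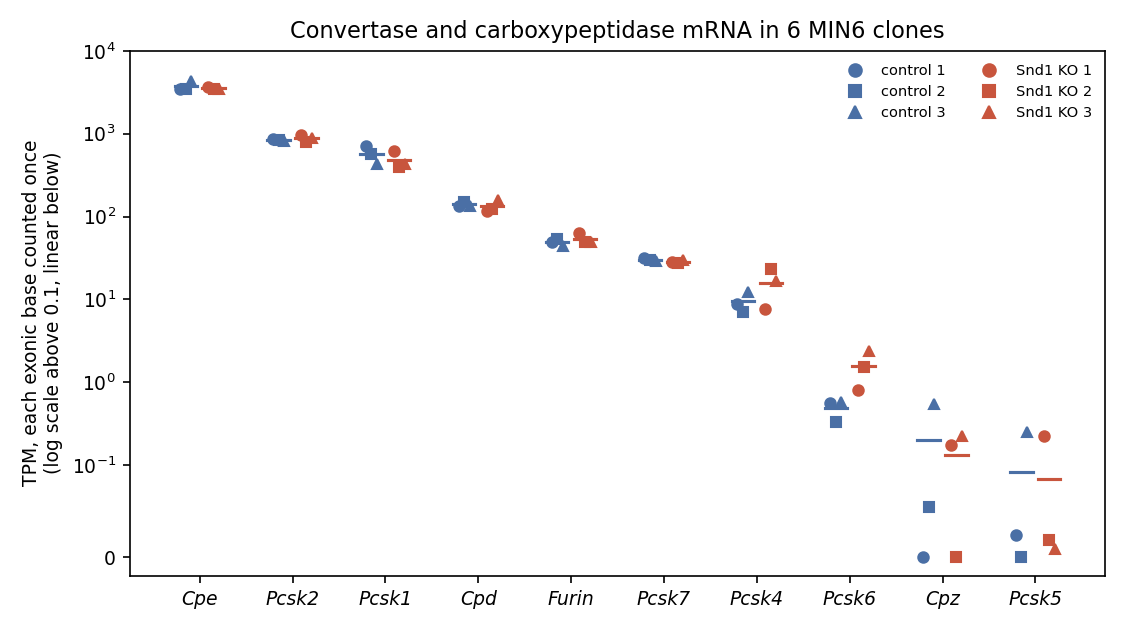
Level of the 10 genes in each clone on the TPM scale that counts each exonic base once (y axis, logarithmic above 0.1 and linear below), with points for clones and horizontal bars for group means (n = 3). *Cpe*, *Pcsk2* and *Pcsk1* lie above the other members in every clone, and *Pcsk6* is the member whose *Snd1* KO clones all lie above the controls.

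Together, *Pcsk1* and *Pcsk2* accounted for 94.0% ± 0.530 of convertase mRNA in control and 93.0% ± 0.897 in *Snd1* KO clones (SD, n = 3 each), on the same scale. The share lay between 92.2% and 94.5% in the 6 clones and the groups overlapped (exact permutation test, two-sided, p = 0.2, where 0.1 is the smallest p that 3 against 3 clones allow). The difference of −0.95 percentage points was −0.51 when *Snd1* KO 2 was left out and −0.36 on the scale of the deposited TPM. *Furin* made up 3.29% ± 0.286 and 3.71% ± 0.169, and *Pcsk7* 2.04% ± 0.137 and 1.98% ± 0.246. *Cpe* made up 96.4% of the mRNA of the 3 carboxypeptidases in both groups (SD 0.554 and 0.756, exact permutation p = 1.0).

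None of the members was called between *Snd1* KO and control clones. Calls were made at an adjusted p under 0.05 and at least a 2-fold change, and 1 of 17823 genes tested, or 0.00561%, passed (*Gm24966*, outside the rule for named genes and lower in *Snd1* KO). Of the 10 members, 8 reached the minimum mean of 0.5 TPM and were tested. Adjusted p-values ran from 0.641 to 0.914 (limma), and 4 members had positive and 4 negative log2 fold changes, with a median of −0.01 against 0.04 over all genes tested. No member had an unadjusted p under 0.05, against 7.96% of all genes tested.

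**Figure D2:**
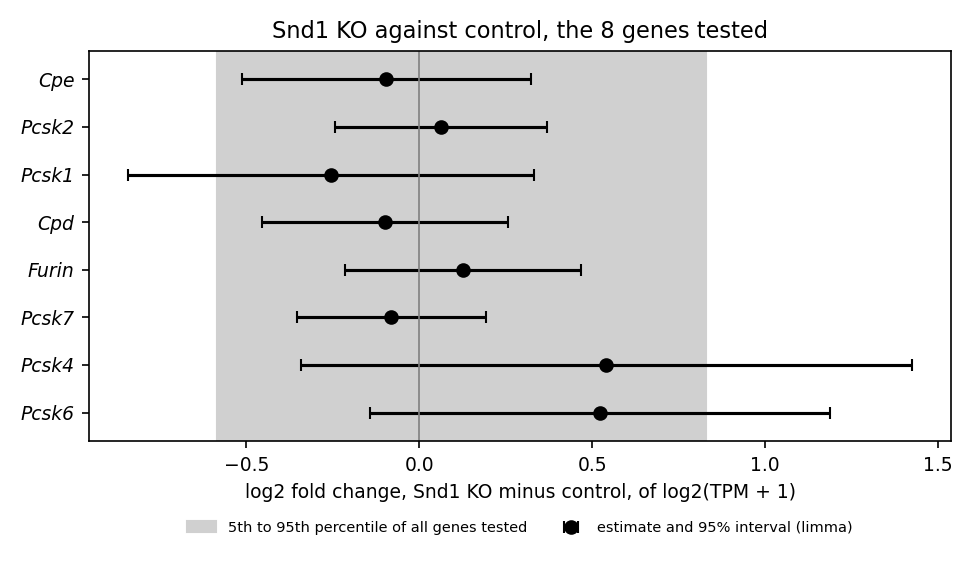
Log2 fold change of log2(TPM + 1) from control to *Snd1* KO (x axis) for the 8 members tested, with 95% intervals from limma. Every interval includes 0, and the shaded band from −0.58 to 0.83 holds the middle of the distribution of all 17823 genes tested, from the 5th to the 95th percentile.

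*Pcsk1* encodes PC1/3, which starts proinsulin conversion at the junction of the B chain and C-peptide. It measured 861, 681 and 518 TPM in control 1, 2 and 3 and 737, 473 and 511 TPM in *Snd1* KO 1, 2 and 3. Control 1 and *Snd1* KO 1 were the highest clones and the groups overlapped. From control to *Snd1* KO the level differed by −0.26 on the log2 scale (95% interval −0.84 to 0.33, standard error 0.25, limma adjusted p = 0.790). Single clones moved this estimate, to −0.44 when control 3 was left out, to −0.45 when *Snd1* KO 1 was left out, to −0.13 when *Snd1* KO 2 was left out and to −0.08 when control 1 was left out, and the adjusted p stayed above 0.05 in each case. Among the 6 members that averaged 5 TPM or more on the deposited scale, *Pcsk1* varied the most between clones, with an SD of 0.35 on the log2 scale over all 6 clones, above that of 75.6% of the 11368 genes past the same minimum, while *Pcsk4*, with a deposited mean of 4.80 TPM, had an SD of 0.56.

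*Pcsk2* encodes PC2, which cuts at the junction of C-peptide and the A chain. Its values were 1202, 1182 and 1135 TPM in control 1, 2 and 3 and 1326, 1129 and 1228 TPM in *Snd1* KO 1, 2 and 3. The highest and the lowest clone were both *Snd1* KO. The groups differed by 0.06 on the log2 scale (95% interval −0.24 to 0.37, standard error 0.13, limma adjusted p = 0.914), and the estimate was 0.04 without control 3, 0.0062 without the first and 0.12 without the second of the *Snd1* KO clones. Its SD over the 6 clones, 0.09 on the log2 scale, was above that of only 5.30% of these genes.

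The balance of PC1/3 and PC2 mRNA followed *Pcsk1*. The ratio of *Pcsk1* to *Pcsk2* on the deposited scale was 0.717, 0.576 and 0.456 in control 1, 2 and 3 and 0.556, 0.419 and 0.416 in *Snd1* KO 1, 2 and 3. Control 3 lay among the *Snd1* KO clones and *Snd1* KO 1 among the controls, so the groups overlapped. On the log2 scale the ratio averaged −0.80 ± 0.33 in control and −1.12 ± 0.24 in *Snd1* KO (SD, n = 3 each), a difference of −0.32 (exact permutation test, two-sided, p = 0.2). The difference was −0.48 without control 3 and −0.16 without control 1, with exact permutation p-values of 0.2 and 0.5. Since the ratio is taken within a library, it does not depend on how libraries are scaled.

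**Figure D3:**
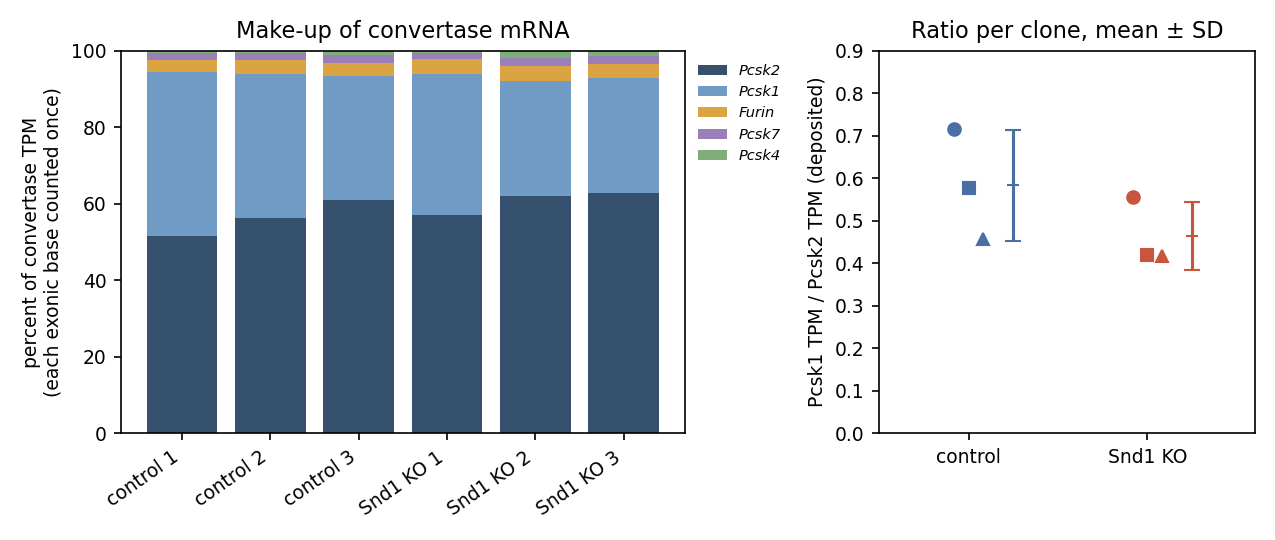
Left, share of each convertase in the summed convertase TPM of each clone (y axis, percent, each exonic base counted once), with *Pcsk5* and *Pcsk6* too small to draw. Right, *Pcsk1* TPM divided by *Pcsk2* TPM as deposited, with a point per clone and the mean ± SD per group (n = 3). The shares of *Pcsk1* and *Pcsk2* sum to between 92.2% and 94.5%, and control 3, at a ratio of 0.456, lies below *Snd1* KO 1 at 0.556.

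*Cpe* encodes carboxypeptidase E, which removes the basic residues that the convertases leave on the insulin chains. It measured 3472, 3454 and 4233 TPM in control 1, 2 and 3 and 3617, 3430 and 3356 TPM in *Snd1* KO 1, 2 and 3. Control 3 was the highest clone and the other 5 lay close together. The difference of −0.10 on the log2 scale (95% interval −0.51 to 0.32, standard error 0.17, limma adjusted p = 0.903) became 0.0011 when control 3 was left out and −0.26 after quantile normalization, and it was −0.15 when control 2 was left out.

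*Furin* and *Pcsk7*, convertases of the Golgi and cell surface found in most tissues, had overlapping groups. *Furin* had 30.2, 32.4 and 27.0 TPM in control 1, 2 and 3 and 38.6, 30.0 and 29.9 TPM in *Snd1* KO 1, 2 and 3, with *Snd1* KO 1 the highest (log2 fold change 0.13, standard error 0.14, 95% interval −0.21 to 0.47, adjusted p = 0.824, limma). This estimate was 0.0079 when *Snd1* KO 1 was left out and 0.06 when control 3 was left out. *Pcsk7* had 16.7, 15.5 and 15.1 TPM in control 1, 2 and 3 and 14.7, 14.4 and 15.5 TPM in *Snd1* KO 1, 2 and 3. With an SD of 0.07 on the log2 scale it was among the steadiest genes in these clones, above 2.51% of genes of 5 TPM or more, and its log2 fold change was −0.08 (standard error 0.11, 95% interval −0.36 to 0.19, adjusted p = 0.867, limma), or −0.04 when control 1 was left out.

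*Pcsk4* encodes a convertase best known from male germ cells. It was low, at 3.34, 2.69 and 4.69 TPM in control 1, 2 and 3 and 2.89, 8.86 and 6.32 TPM in *Snd1* KO 1, 2 and 3, which correspond to 223, 171 and 271 and to 174, 514 and 393 reads. *Snd1* KO 2 and 3 lay above all controls and *Snd1* KO 1 lay among them. The difference of 0.54 on the log2 scale (95% interval −0.34 to 1.42, standard error 0.37, limma adjusted p = 0.718) fell to 0.25 when *Snd1* KO 2 was left out and rose to 0.92 when *Snd1* KO 1 was left out.

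*Pcsk6* encodes PACE4, a secreted convertase that binds the extracellular matrix. The libraries of control 1, 2 and 3 held 25, 14 and 22 reads and those of *Snd1* KO 1, 2 and 3 held 32, 59 and 97 reads, or 0.307, 0.181 and 0.312 against 0.436, 0.834 and 1.28 TPM. It was the single member whose groups did not overlap, with every *Snd1* KO clone above every control, a pattern that 9.69% of the genes tested showed in that direction. *Snd1* KO 1, at 32 reads with an exact Poisson 95% interval of 21.9 to 45.2, lay within the counting error of control 1 (25 reads, 16.2 to 36.9). The log2 fold change was 0.52 (standard error 0.28, 95% interval −0.14 to 1.19, adjusted p = 0.641, limma), with an exact permutation p of 0.1, the smallest possible. *Pcsk6* passed the minimum of 0.5 TPM through the *Snd1* KO clones, since the controls averaged 0.267 TPM, so its place among the genes tested is not independent of its difference. Because 1 was added to each TPM, the value understates the change of so low a gene, and it was 1.29 when 0.1 was added instead.

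**Figure D4:**
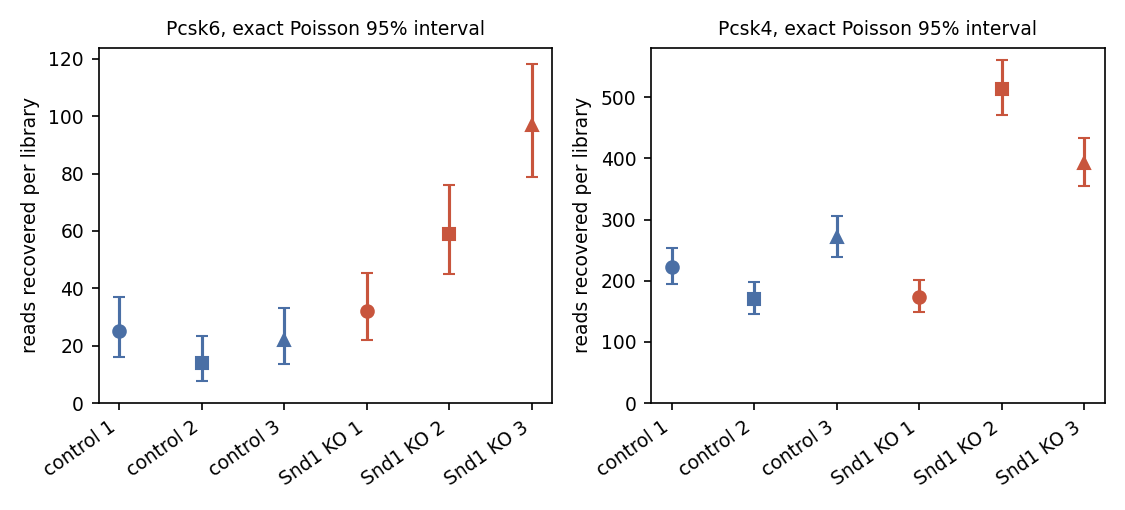
Reads recovered per library (y axis) for *Pcsk6* and *Pcsk4* in the 6 clones, with exact Poisson 95% intervals that cover counting error only. *Pcsk6* runs from 14 to 25 reads in control and from 32 to 97 in *Snd1* KO, while for *Pcsk4* *Snd1* KO 1 (174 reads) lies among the controls.

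*Pcsk5*, which encodes the convertase PC5/6, was near the limit of detection. Control 1, 2 and 3 had 3, 0 and 27 reads and *Snd1* KO 1, 2 and 3 had 25, 2 and 1 reads. A clone of each group carried nearly all of the reads, and the other 4 clones were at or under 3 reads, the floor of detection used here. The length of *Pcsk5* was found by a search for the smallest one that gives whole reads, so the true counts may be multiples of these. *Cpz*, which encodes a carboxypeptidase with a Wnt-binding domain, had 0, 1 and 9 reads in control 1, 2 and 3 and 3, 0 and 4 reads in *Snd1* KO 1, 2 and 3. Neither gene was tested, and the groups overlapped for both.

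*Cpd* encodes carboxypeptidase D, which trims peptides in the trans-Golgi network of most cells. It measured 191, 215 and 190 TPM in control 1, 2 and 3 and 163, 173 and 226 TPM in *Snd1* KO 1, 2 and 3. *Snd1* KO 1 and 2 lay below the controls and *Snd1* KO 3 above them (log2 fold change −0.10, standard error 0.15, 95% interval −0.45 to 0.26, adjusted p = 0.879, limma). Leaving out *Snd1* KO 1, 2 or 3 gave −0.0052, −0.05 and −0.24, and leaving out control 2 gave −0.04.

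Of 16 alternative settings, the one that put members past an adjusted p of 0.05 was a fit with quality weights per clone. In it 2 members, *Pcsk4* (adjusted p = 0.042, log2 fold change 0.86, limma) and *Pcsk6* (adjusted p = 0.049, log2 fold change 0.80, limma), passed the p threshold but not the 2-fold threshold, against 12.1% of all genes tested at that p. *Pcsk6* reached the 0.5 TPM minimum only through the *Snd1* KO clones (mean 0.850 against 0.267 TPM in control clones), so its call and a count that includes it are given as a description. The weights ranged from 0.279 for control 3 and 0.286 for *Snd1* KO 1 to 3.91 for *Snd1* KO 3. Under these weights the log2 fold change of *Pcsk1* was −0.51 (adjusted p = 0.066, limma).

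Beside the members, genes that bind, complete or follow their work were examined from lists chosen by function. *Scg5* encodes 7B2, the chaperone that PC2 needs to become active, and *Pcsk1n* encodes proSAAS, an inhibitor of PC1/3. *Scg5* measured 1440, 1447 and 1454 TPM in control 1, 2 and 3 and 1295, 1325 and 1313 TPM in *Snd1* KO 1, 2 and 3, so every *Snd1* KO clone lay below every control, as for 4.03% of the genes tested. The difference of −0.14 on the log2 scale (standard error 0.12, limma adjusted p = 0.758) did not pass the test, and it was −0.05 after quantile normalization. *Pcsk1n* had 262, 257 and 238 TPM in control 1, 2 and 3 and 153, 253 and 221 TPM in *Snd1* KO 1, 2 and 3, with *Snd1* KO 1 the lowest (log2 fold change −0.30, adjusted p = 0.696, limma).

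Among 7 enzymes that finish peptides or degrade them in granules and lysosomes, 4 had positive and 3 negative log2 fold changes, none was called and 1 had an unadjusted p under 0.05, against 7.96% of all genes tested. That gene was *Pam*, which encodes the monooxygenase that amidates peptide ends after carboxypeptidase action. It measured 135, 147 and 94.9 TPM in control 1, 2 and 3 and 84.7, 37.1 and 71.2 TPM in *Snd1* KO 1, 2 and 3. The groups did not overlap, as for 4.03% of all genes tested in that direction, and control 3 and *Snd1* KO 1 were close. The difference of −1.01 on the log2 scale (standard error 0.32, limma adjusted p = 0.575) was −0.66 when *Snd1* KO 2 was left out, and with quality weights, where 895 genes were called, *Pam* was called too (log2 fold change −1.06, adjusted p = 0.028, limma). *Ece1*, an endothelin-converting enzyme, was 1045, 1041 and 839 TPM in control 1, 2 and 3 and 1051, 404 and 491 TPM in *Snd1* KO 1, 2 and 3, low in the last 2 clones (log2 fold change −0.71, adjusted p = 0.614, limma). *Qpct*, the cyclase of N-terminal glutamine, was 37.4, 69.0 and 0.105 TPM in control 1, 2 and 3 and 0, 43.8 and 92.3 TPM in *Snd1* KO 1, 2 and 3, so a clone of each group was at or near 0. The cathepsins *Ctsl* and *Ctsb*, the insulin-degrading enzyme *Ide* and the aminopeptidase *Rnpep* had log2 fold changes of −0.08, 0.01, 0.05 and 0.25, with overlapping groups.

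**Figure D5:**
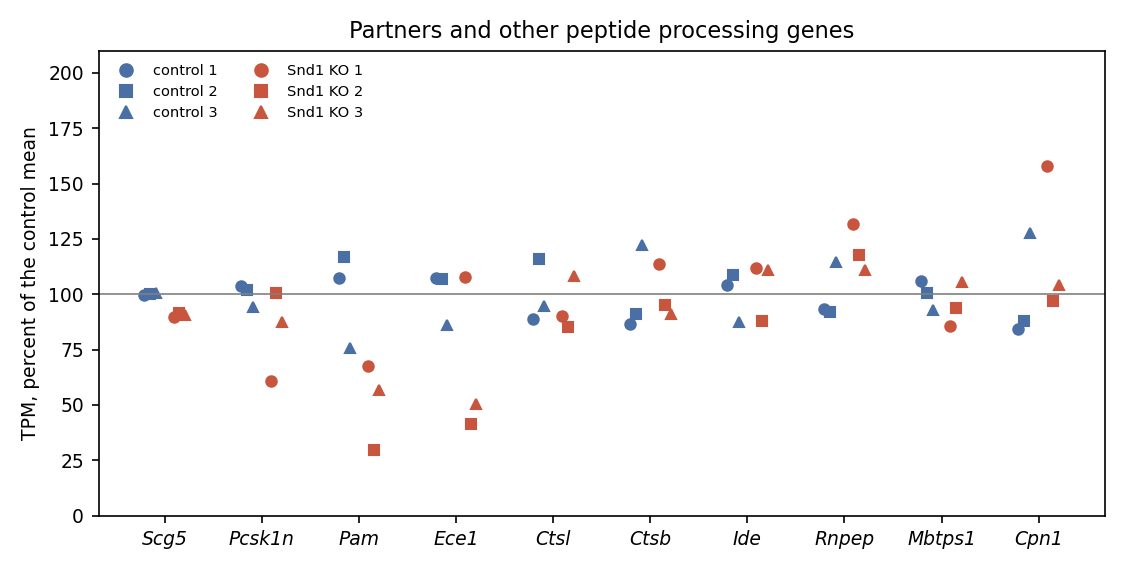
TPM of partner and other processing genes in each clone as a percent of the control mean (y axis), with a point per clone. *Scg5* is lower in each *Snd1* KO clone (1295 to 1325 TPM) than in each control (1440 to 1454 TPM), *Pam* is lower without overlap, and *Ece1* is low in *Snd1* KO 2 and 3 but not in *Snd1* KO 1.

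The more distant relatives of the family were also read. *Mbtps1*, the site-1 protease of membrane-bound transcription factors, was even at 47.4 to 58.6 TPM. Of 5 other regulatory carboxypeptidases, 4 were tested and all 4 had positive log2 fold changes, a sign that 57.3% of all genes tested shared. *Cpm*, a membrane-bound carboxypeptidase, was 13.2, 27.4 and 59.0 TPM in control 1, 2 and 3 and 63.6, 59.9 and 50.9 TPM in *Snd1* KO 1, 2 and 3 (log2 fold change 1.03, adjusted p = 0.607, limma), with control 3 within the range of the *Snd1* KO clones. *Cpn1*, *Aebp1* and *Cpxm1* had log2 fold changes of 0.25, 0.81 and 0.14, and *Cpxm2* was too low to be tested. The digestive carboxypeptidases *Cpa1* and *Cpb1* of acinar cells were near 0, with *Cpa1* at 0 and *Cpb1* under 1 TPM in every clone.

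The precursors on which the granule enzymes act were read from a list of 20 genes. Of these, 14 were tested, 4 with positive and 10 with negative log2 fold changes and a median of −0.25, against a median of 0.04 and 57.3% positive over all genes tested. None was called (lowest adjusted p = 0.544, limma), and 4 had an unadjusted p under 0.05, all lower in *Snd1* KO, against 7.96% of all genes tested in either direction. *Cck*, the precursor of cholecystokinin, was 2368, 3174 and 1803 TPM in control 1, 2 and 3 and 1041, 397 and 987 TPM in *Snd1* KO 1, 2 and 3. *Sct*, the precursor of secretin, was 340, 192 and 117 TPM in control 1, 2 and 3 and 80.1, 19.0 and 28.3 TPM in *Snd1* KO 1, 2 and 3. In both the groups did not overlap, as for 4.03% of all genes tested in that direction. The granule protein *Vgf* (log2 fold change −1.20, adjusted p = 0.607, limma) and neuropeptide Y, *Npy* (−0.98, adjusted p = 0.607), were the other two, and *Npy* groups did not overlap either. The most abundant precursors beside *Npy* were *Iapp*, which encodes islet amyloid polypeptide, and *Ins2*, with log2 fold changes of 0.39 and −0.27 and overlapping groups.

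Among 20 precursors of the furin type, 17 were tested, 9 with positive and 8 with negative log2 fold changes and a median of 0.03. *Igf1r*, the IGF-1 receptor, was 0.650, 0.976 and 9.97 TPM in control 1, 2 and 3 and 32.0, 16.8 and 18.4 TPM in *Snd1* KO 1, 2 and 3, without overlap (log2 fold change 2.77, standard error 0.72, adjusted p = 0.568, limma), with control 3 between the other controls and the *Snd1* KO clones. Among all genes tested, 9.69% had groups without overlap in that direction. *Igf2* had a log2 fold change of −0.53 (adjusted p = 0.607, limma) with overlapping groups, and the abundant *Atp6ap1* and *Adam10* had −0.18 and −0.08.

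For each member that averaged 5 TPM or more, the 2 genes with the most similar pattern over the 6 clones were found from the root mean square difference of centred log2(TPM + 1). *Pcsk1* was nearest to *Cep41* (0.07) and *Zfp703* (0.08). *Pcsk2* was nearest to *Agpat5* and *Metap1* (both 0.03). *Pcsk7* was nearest to *Cops7a* and *Cdc26* (both 0.02), *Furin* to *Rfx5* (0.02) and *Bdp1* (0.04), *Cpe* to *Gcat* and *Wdr4* (both 0.03), and *Cpd* to *Uhrf1bp1* and *Hspa9* (both 0.05). No member was among the nearest genes of another, and with 6 clones these are descriptions only.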

How the data were processed

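RNA from 6 clonal MIN6 lines (3 control, 3 *Snd1* KO, 1 library per clone) was sequenced. TPM per gene were deposited by the authors, who used the Genialis platform for the reads, and the submitters' processing notes name FastQC, Trimmomatic, HISAT2, HTSeq, DESeq2 and the build mm10. Which annotation release was used is not given in the sources used here. The members and gene lists were chosen with earlier results of these data known.

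Of 53808 mouse gene identifiers, 53706 matched GENCODE M21 (GRCm38). The 92 ERCC rows, at most 1.02 TPM, were left out. TPM multiplied by the exon length summed over transcripts gave whole multiples of 1 read for 91.7% of the 14851 genes that averaged 1 TPM or more and had values above 0 in every clone (tolerance 0.01). Lengths of 1779 genes, *Pcsk5* among them, were found by a search that made the reads whole, so their wholeness is no check. These reads gave the depth, 23700630 to 30454383 per library, and Poisson intervals, which cover counting error only. A second TPM scale counted each exonic base once.

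Genes that averaged 0.5 TPM or more were compared on log2(TPM + 1) with limma 3.58.1 (lmFit, eBayes with trend, R 4.3.3). P-values were adjusted over all genes tested by the method of Benjamini and Hochberg, and genes were called at an adjusted p under 0.05 and at least a 2-fold change. Ratios and shares were compared by exact two-sided permutation tests over 20 splits. The fit was also run on simulated data with large known changes and noise capped below that of the most variable genes. That run does not show how the fit performs on changes as small as those of the members. Named genes were the members, *Snd1*, the 2 genes nearest in pattern to each member of 5 TPM or more, every gene of lists of up to 7, and of longer lists the genes with an unadjusted p under 0.05 and the 3 most abundant. Some genes of these lists are not reported here. Alternatives were pseudocount 0.1, no filter and a minimum of 5 TPM, quantile, median-of-ratios and insulin-free scaling, robust trend, quality weights, a replicate block, voom on the recovered reads and leaving out each clone. Python 3.11.15 with pandas 2.3.3, scipy 1.17.1 and matplotlib 3.10.9 served for the remaining steps.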

Additional observations from a re-analysis of the deposited data

How the results depend on the processing

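No member was called under any of the 16 alternatives. The 1 gene called became 0 with no filter on low values, 0 with voom on recovered reads, 895 with quality weights and 0 to 2 when a clone was left out, and the cause was not tested. Replicate numbers did not pair the clones (r = 0.12, −0.20 and −0.11 between same-numbered clones). With a replicate block 0 genes were called, and the *Pcsk1* to *Pcsk2* difference was −0.32 (exact permutation p = 0.25, the smallest that 3 pairs allow for two-sided tests). Signs turned for *Furin* (−0.034) and *Cpd* (0.070) with quality weights, and for *Cpe* without control 3 (0.0011, against −0.15 without control 2). The difference in the *Cpe* share was −0.31 to 0.42 percentage points when a clone was left out, positive without control 3 (0.28) and without *Snd1* KO 3 (0.42). The directions of the other 5 members tested and of *Scg5* and *Pam* held under each alternative in which they could be fitted. *Pcsk6* could not be fitted without *Snd1* KO 3, where its mean fell under 0.5 TPM, nor at a minimum of 5 TPM, as *Pcsk4* could not. Scaling moved the median of all genes by at most 0.06 on the log2 scale. Counting error is widest for *Pcsk5*, *Pcsk6* and *Cpz*, the members with the fewest reads, although in each some clones differed by more than their counting intervals.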

Other observations

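Set against the prohormone mRNA of each clone, the granule enzymes had the following levels. Per 1000 TPM summed over the 20 neuroendocrine precursors, with each exonic base counted once, *Cpe* was 33.3, 33.1 and 32.1 TPM in control 1, 2 and 3 and 37.9, 30.3 and 34.3 TPM in *Snd1* KO 1, 2 and 3. *Pcsk1* was 6.75, 5.33 and 3.21 TPM in control 1, 2 and 3 and 6.32, 3.42 and 4.27 TPM in *Snd1* KO 1, 2 and 3. *Pcsk2* was 8.10, 7.96 and 6.05 TPM in control 1, 2 and 3 and 9.78, 7.01 and 8.81 TPM in *Snd1* KO 1, 2 and 3. Control 3 and *Snd1* KO 2 held the least *Pcsk1* and *Pcsk2* per precursor, and control 1 and *Snd1* KO 1 the most *Pcsk1*.

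*Ins1*, chosen after its values were seen, was 2429, 4086 and 6033 TPM in control 1, 2 and 3 and 2059, 11945 and 8219 TPM in *Snd1* KO 1, 2 and 3. Control 1 and *Snd1* KO 1, the clones with the most *Pcsk1*, had the least *Ins1*, and *Snd1* KO 2, with the least *Pcsk1*, had the most. No test was run on this pattern.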
